A study of Mus musculus with 8 samples.

Results

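The genes described here are 33 components of the tight junction, the belt of strand-forming proteins that closes the space between epithelial cells. They were chosen as a list of names, and all 33 are among the 22180 genes measured. The list holds 19 claudins, 3 MARVEL proteins, 3 junctional adhesion molecules, 4 scaffold genes and 4 polarity genes. Expression was measured in 8 clonal cell lines from liver tumours of C57BL/6 mice, 4 labelled intrahepatic cholangiocarcinoma (ICC) and 4 labelled hepatocellular carcinoma (HCC). Both tumour types came from transformed hepatocytes, per the series title, and were driven by c-Myc and NrasG12V from the pCaMIN vector, delivered by focal electroporation in vivo for ICC and by hydrodynamic injection into the tail vein for HCC, so type and delivery cannot be told apart. All lines were cultured untreated in DMEM with 10% FCS, and each was hybridised to 1 array. ICC9, ICC10, HCC2.1 and HCC2.4 are labelled female, and ICC2.7, ICC2.9, HCC1 and HCC4 male, which gives 4 pairs of lines of the same type and labelled sex. No label gives the animal or the tumour behind a line, so labelled sex cannot be told apart from the source of a pair. The p-values between types measure only the spread between these lines of a type. Those of the contrasts by labelled sex measure only the spread between the 2 lines of each pair.

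Claudins span the membrane, and which claudins a cell makes sets whether its junctions seal or pass ions. Occludin and the other MARVEL proteins and the junctional adhesion molecules are further membrane proteins of the junction, ZO proteins and cingulins tie them to actin, and the Par and Crumbs complexes place the junction between the apical and the lateral membrane. In the liver, tight junctions close the bile canaliculus between hepatocytes and the lumen of the bile duct.

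The bases before the gene are shown for Cldn6, F11r and Pard6b, the members that were higher in the lines labelled female when both types were averaged, a comparison added after the values were seen. Their values did not follow each other in every line: in HCC1 Cldn6 was low (5.09), while F11r (9.70) and Pard6b (6.65) were not. They are from RefSeq (GRCm38.p6), end at the base before the gene as RefSeq annotates it, which leaves 233 of 250 bases of the Cldn6 window, and run 5′ to 3′ on the strand of the gene. Capitals mark CACCTG or, on the other strand, CAGGTG, the E-box bound by Snail and Zeb repressors.
Cldn6, chr17:23679115-23679347, plus strand: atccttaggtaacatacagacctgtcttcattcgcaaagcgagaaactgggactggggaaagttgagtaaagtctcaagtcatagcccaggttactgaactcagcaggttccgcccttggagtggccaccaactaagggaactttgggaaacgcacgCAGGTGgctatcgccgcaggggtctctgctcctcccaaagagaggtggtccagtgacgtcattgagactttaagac
F11r, chr1:171437311-171437560, plus strand: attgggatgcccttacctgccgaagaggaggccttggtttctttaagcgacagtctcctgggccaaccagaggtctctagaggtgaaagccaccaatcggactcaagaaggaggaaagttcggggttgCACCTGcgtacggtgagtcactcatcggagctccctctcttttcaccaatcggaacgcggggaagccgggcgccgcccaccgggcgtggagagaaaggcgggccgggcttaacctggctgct
Pard6b, chr2:168080754-168081003, plus strand: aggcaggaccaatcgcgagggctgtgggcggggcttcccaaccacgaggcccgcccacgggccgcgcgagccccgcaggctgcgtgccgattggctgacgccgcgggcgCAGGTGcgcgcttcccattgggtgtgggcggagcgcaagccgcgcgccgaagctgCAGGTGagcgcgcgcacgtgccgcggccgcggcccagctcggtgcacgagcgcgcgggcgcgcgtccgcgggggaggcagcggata

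The E-box is present at 1 place before Cldn6 and before F11r and at 2 places before Pard6b. It was found in 17.2% of 32851 windows of 250 bases before annotated starts, and in 13 of the 42 windows that belong to members. Those 13 windows belong to 11 of the 27 members with an entry. The grainyhead core AACCGG, or CCGGTT on the other strand, is in 0 of the windows printed, in 4 windows of members and in 5.62% of all windows. Both motifs were chosen after the expression values were seen, and a match is a run of letters that shows no binding.

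Values are log2 signals after RMA, and the brightness of a probe set is its own, so differences are read between lines. A place above or below the median gene describes brightness and does not rank genes by expression. Of 6 epithelial markers, Krt8 (8.48 to 11.41) and Krt18 (10.72 to 12.27) were above the median gene (5.66) in all 8 lines and Epcam and Cdh3 below it in all. All 5 mesenchymal markers were above it in every line, among them Vim (13.40 to 13.58) and Col1a1, which was highest in ICC2.7 (9.82) and ICC2.9 (8.19) and at 6.41 to 7.18 elsewhere. Of 6 hepatocyte markers 0 were above it in every line, and albumin lay at 4.12 to 4.64. Of 5 bile duct markers Sox9 (11.45 to 11.86) and Krt7 (5.84 to 6.04) were above it in every line and Epcam (4.14 to 5.12) and Cftr below it. Of 5 endothelial markers 4 were below it in every line, as were 3 of 4 leukocyte markers, Ptprc included (3.40 to 3.99). The macrophage gene Cd68 measured 7.31 to 10.21 and was lowest in ICC2.7 and ICC2.9. The lines labelled female were above those labelled male without overlap for Krt19 (7.76 to 9.26 against 5.60 to 6.89), Sox9 (11.62 to 11.86 against 11.45 to 11.59) and Ptprc (3.62 to 3.99 against 3.40 to 3.58). These come from 32 measured markers, and the share of all genes that part in this way was not counted. Apob, a hepatocyte gene, read 8.80 in HCC2.1, 8.79 in HCC2.4 and 3.69 to 5.34 in the other lines. Xist read 11.26 to 11.59 in the lines labelled female and 4.02 to 4.64 in those labelled male. The values of the 8 arrays span only 7 directions, with ICC9 (0.782) and ICC10 (-0.538) the largest weights in the missing one, so the arrays hold fewer independent values than their number.

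Most claudins hardly moved between lines. Of the 19, 10 lay below the median gene of the array in all 8 lines: Cldn1, Cldn5, Cldn7, Cldn8, Cldn9, Cldn10, Cldn14, Cldn15, Cldn16 and Cldn18. Their values ran from 3.17 to 5.53, and the span of each over the lines was between 0.22 and 0.95 log2 units. Among them are Cldn1, a sealing claudin of hepatocytes, Cldn5, the main claudin of endothelium, and the channel-forming Cldn10, Cldn15 and Cldn16. Another 6 lay above the median gene in all 8 lines: Cldn3, Cldn11, Cldn12, Cldn19, Cldn20 and Cldn23. They include Cldn3, a sealing claudin, and Cldn11, known from myelin and the Sertoli cell barrier. The remaining 3, Cldn2, Cldn4 and Cldn6, crossed the median gene between lines.

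The claudins above the median gene numbered 8 in ICC9 and ICC10, 7 in ICC2.7, ICC2.9, HCC1 and HCC4, 9 in HCC2.1 and 8 in HCC2.4. Each of these values also exceeded the 95th percentile of 1394 olfactory and vomeronasal receptor genes on the same array (4.99 to 5.10), taken as genes not known to be used in liver cells; this describes brightness and is no test of detection. Above the 99th percentile the counts were 3 in ICC2.9 and 5 to 7 in the other lines, with 1 claudin, Cldn12, above it in all 8 lines and 7 above it in at least 1. The 3 claudins that crossed the median gene did so in different lines. Cldn2 was above the median gene in all but ICC2.7 and ICC2.9. Cldn6 was above it in all but HCC1 and HCC4. Cldn4 was above it in HCC2.1.

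**Figure D1:**
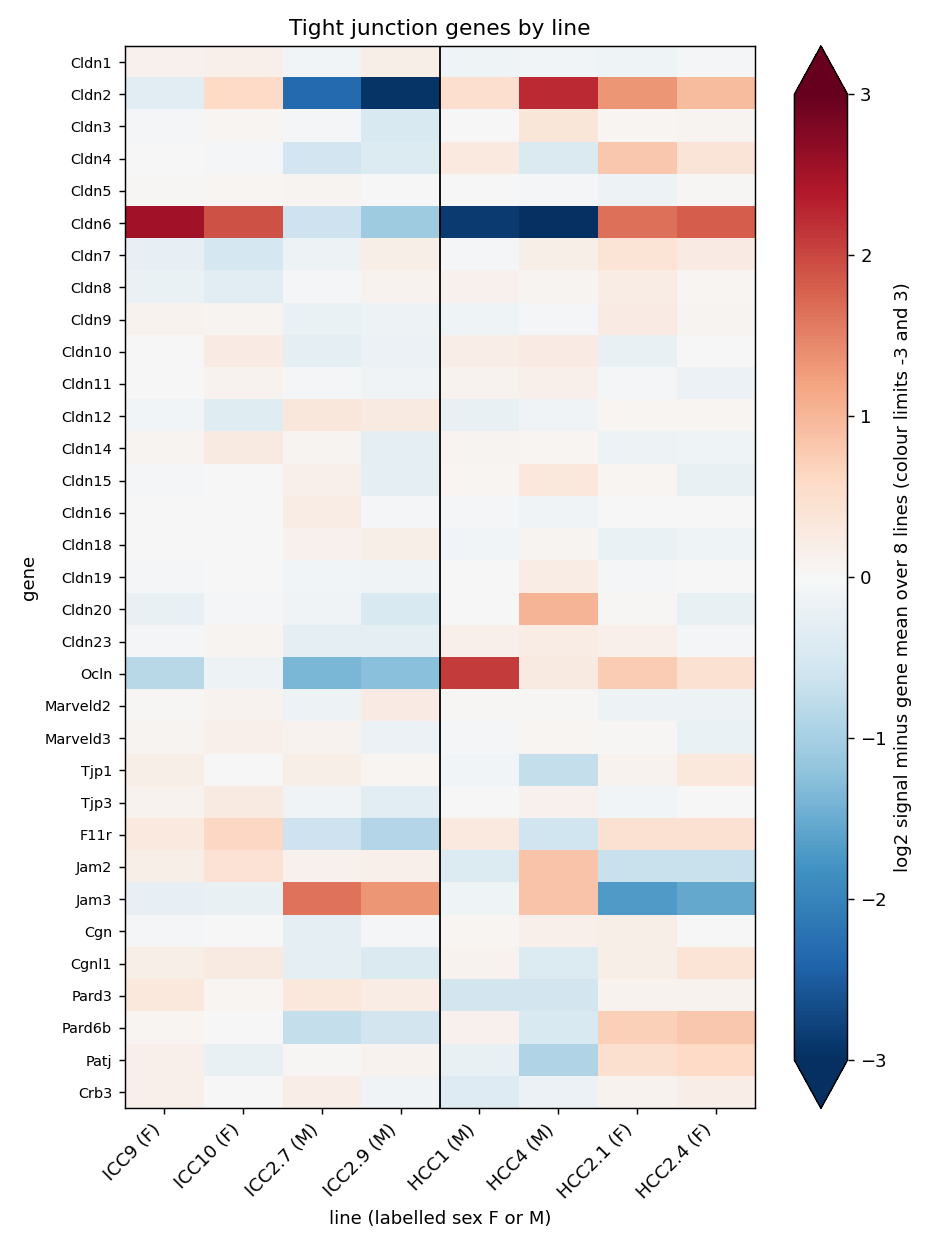
Log2 signal of each of the 33 genes (rows) in each of the 8 lines (columns, with labelled sex F or M), shown as the difference from the mean of the gene over the lines; the vertical line parts ICC from HCC lines. Cldn2, Cldn6, Ocln and Jam3 carry the strongest colours, and most other claudins are pale in every line.

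Cldn6, a claudin of embryonic epithelium that is low in most adult tissues, had the widest range of all members. It measured 10.47 in ICC9, 9.87 in ICC10, 7.34 in ICC2.7 and 6.89 in ICC2.9, and 5.09 in HCC1, 4.58 in HCC4, 9.61 in HCC2.1 and 9.77 in HCC2.4. The 4 lines labelled female were all above the 4 labelled male, with no overlap, a pattern whose share among all genes was not counted. The span of 5.89 log2 units had rank 15 by size among all 22180 genes. Spans of at least 1 log2 unit were found for 11 members (33.3%) and 16.3% of all genes. Cldn9, the gene next to Cldn6 on the chromosome in RefSeq, measured 5.37 to 5.53 in the lines labelled female. In those labelled male it measured 5.09 to 5.24, also without overlap, and it lay below the median gene in every line. Over both types Cldn9 differed by 0.26 (SE 0.07, limma adjusted p = 0.0974), which did not pass.

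Cldn2, which forms channels for cations and water, spanned 5.17 log2 units. It measured 7.41 in ICC9, 8.34 in ICC10, 5.40 in ICC2.7 and 4.81 in ICC2.9. The HCC lines read 8.25 in HCC1, 9.98 in HCC4, 9.07 in HCC2.1 and 8.68 in HCC2.4. ICC2.7 and ICC2.9 were the low lines, and ICC10 overlapped the HCC lines. Cldn4, a sealing claudin, measured 5.12, 5.09, 4.57 and 4.73 in ICC9, ICC10, ICC2.7 and ICC2.9, and 5.43, 4.70, 5.94 and 5.53 in HCC1, HCC4, HCC2.1 and HCC2.4. HCC4 fell among the ICC lines. Cldn20 was 7.37 in HCC4, against 6.35, 6.39 and 6.13 in HCC1, HCC2.1 and HCC2.4 and 6.14, 6.31, 6.26 and 5.90 in ICC9, ICC10, ICC2.7 and ICC2.9. Cldn7 measured 4.06, 3.78, 4.15 and 4.48 in ICC9, ICC10, ICC2.7 and ICC2.9, and 4.26, 4.48, 4.73 and 4.57 in HCC1, HCC4, HCC2.1 and HCC2.4. Cldn23 measured 5.97, 6.10, 5.75 and 5.76 in those ICC lines and 6.16, 6.25, 6.17 and 5.99 in those HCC lines. Both overlapped between the types.

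Ocln, which encodes occludin, was the member with the clearest order by tumour type. It measured 5.88 in ICC9, 6.56 in ICC10, 5.33 in ICC2.7 and 5.45 in ICC2.9, and 8.79 in HCC1, 6.98 in HCC4, 7.47 in HCC2.1 and 7.16 in HCC2.4. Every HCC line was above every ICC line. Marveld2, tricellulin, which sits where 3 cells meet, measured 4.47 to 4.87 and Marveld3 5.01 to 5.35, with no line apart.

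The 3 junctional adhesion molecules had different patterns. F11r, which encodes JAM-A, measured 9.72, 10.03, 8.79 and 8.54 in ICC9, ICC10, ICC2.7 and ICC2.9, and 9.70, 8.82, 9.87 and 9.88 in HCC1, HCC4, HCC2.1 and HCC2.4. The low lines were ICC2.7, ICC2.9 and HCC4. Jam3 measured 5.63, 5.65, 7.51 and 7.19 in the same ICC lines and 5.75, 6.73, 4.16 and 4.34 in the HCC lines, highest where F11r was low. Jam2 measured 9.55, 9.81, 9.52 and 9.53 in those ICC lines and 8.96, 10.24, 8.72 and 8.71 in the HCC lines, with HCC4 above and the other HCC lines below every ICC line.

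Scaffolds varied less. Tjp1, which encodes ZO-1, was bright in every line, at 10.10, 9.93, 10.11 and 9.99 in ICC9, ICC10, ICC2.7 and ICC2.9 and 9.84, 9.21, 10.04 and 10.24 in HCC1, HCC4, HCC2.1 and HCC2.4. HCC4 was the low line. The cingulin relative Cgnl1 ranged from 7.35 to 8.20, cingulin itself (Cgn) from 5.90 to 6.35 and Tjp3, ZO-3, from 5.33 to 5.92. Among polarity genes, Pard3 measured 9.02, 8.75, 9.01 and 8.92 in ICC9, ICC10, ICC2.7 and ICC2.9 against 8.14 in both HCC1 and HCC4, 8.81 in HCC2.1 and 8.80 in HCC2.4. Its partner Pard6b measured 6.58, 6.54, 5.81 and 5.98 in those ICC lines and 6.65, 6.07, 7.23 and 7.32 in HCC1, HCC4, HCC2.1 and HCC2.4. HCC2.1 and HCC2.4 were also highest for Patj, of the Crumbs complex (7.47 and 7.58), with HCC4 lowest at 6.09, HCC1 at 6.76 and ICC9, ICC10, ICC2.7 and ICC2.9 at 7.14, 6.76, 7.04 and 7.11. Crb3, an apical Crumbs protein, ranged from 5.47 to 6.04.

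**Figure D2:**
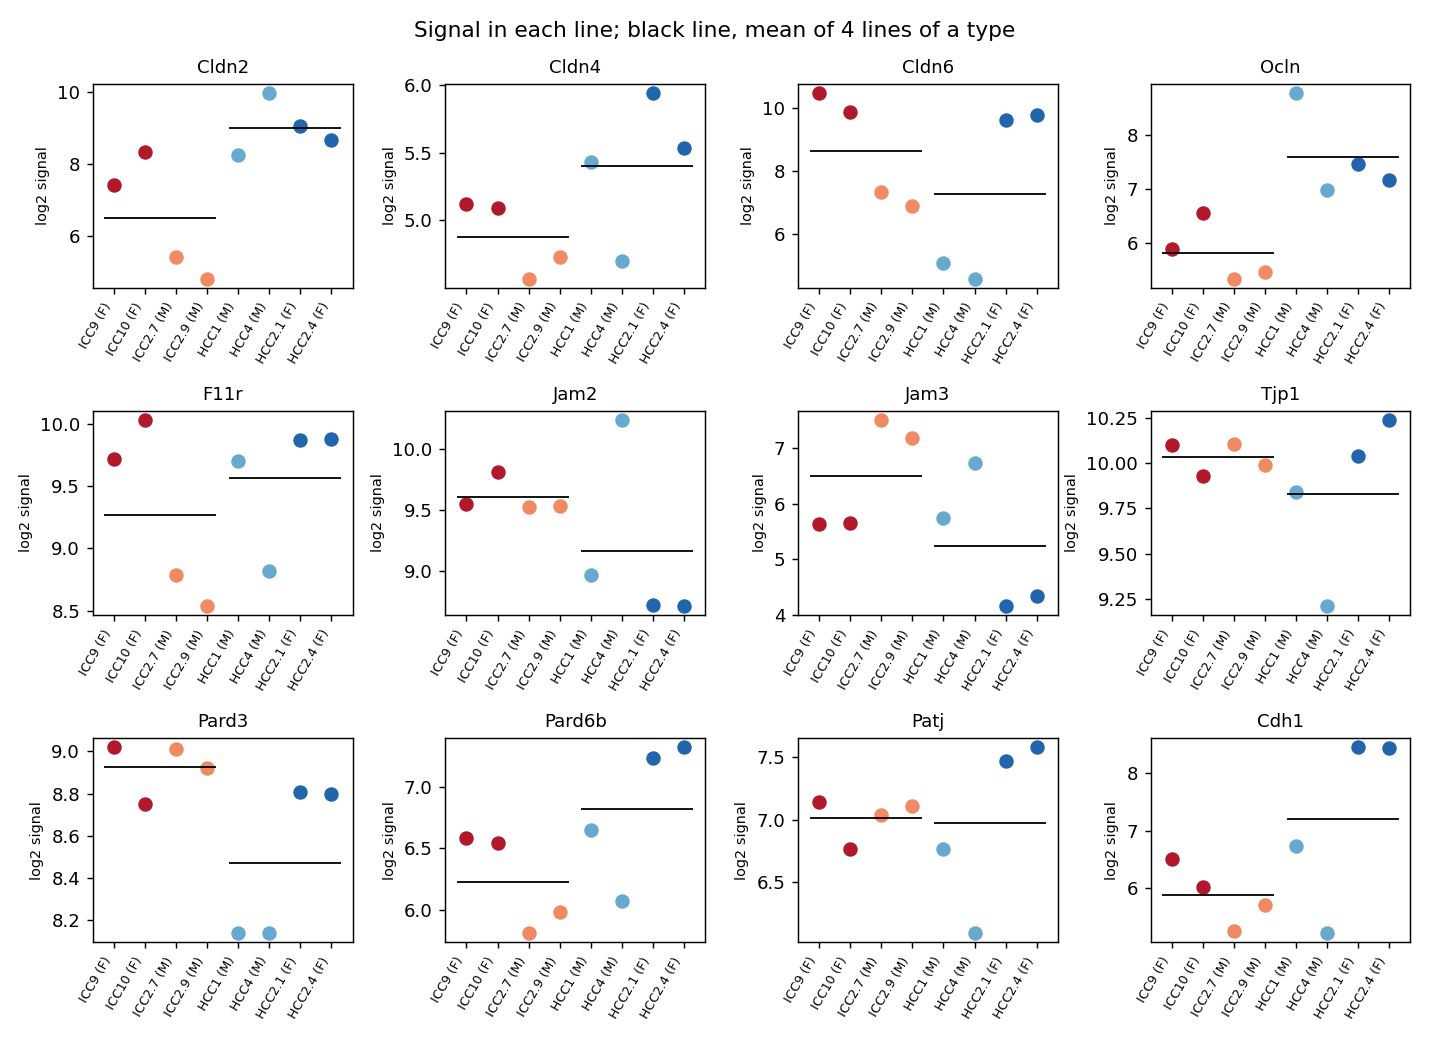
Log2 signal (vertical axis, a separate scale in each panel) in the 8 lines for 11 members and Cdh1; dark red and orange points are ICC lines labelled female and male, dark and light blue points HCC lines labelled female and male, and black lines are means of 4 lines. Within each type the female-labelled lines lie above the male-labelled ones in the Cldn4, Cldn6, F11r, Pard6b and Cdh1 panels and below them in the Jam3 panel. The Jam2 panel parts by labelled sex in opposite directions in the types, and the Ocln panel parts by type.

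The comparison of ICC with HCC lines, which asks what differs between the tumour types when the driving oncogenes are shared, called no member. Of the 33 genes 0 passed limma's test at an adjusted p under 0.05 (0.261% of all genes did), and 5 had an unadjusted p under 0.05 (14.1% of all genes). Those 5 were Ocln, Cldn2, Cldn7 and Cldn23, with lower means in ICC, and Pard3, with a higher mean. The median difference of the members was -0.02 log2 units, against 0.00 over all genes, with 27 of the 33 differing by less than 0.5.

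Ocln had the smallest p of the members. Its mean was 5.80 ± 0.56 in ICC and 7.60 ± 0.82 in HCC lines (SD, n = 4 each), a log2 difference of -1.79 (SE 0.41, limma adjusted p = 0.113). It was also the 1 member with lower values in every ICC line, where 4.44% of all genes were lower in this way, while 0 members were higher in every ICC line (4.19% of all genes). Cldn2 differed by -2.50 (SE 0.75, limma adjusted p = 0.199), or 5.68-fold. Most of it lay in the male-labelled lines (means of 5.11 in ICC and 9.12 in HCC), while the female-labelled ones had means of 7.88 and 8.88. Leaving out a line makes overlap less likely for every gene. Without ICC10 the members lower in every ICC line numbered 6 (6.94% of all genes), without ICC2.9 3 (6.25%), without HCC1 2 (6.76%), without HCC4 3 (7.37%) and without HCC2.4 4 (6.07%). The members higher in every ICC line numbered 2 without ICC2.9 (6.5% of all genes) or HCC4 (6.56%) and 1 without ICC10 (7.06%) or ICC2.7 (6.17%).

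The other 4 members with an absolute difference of at least 0.5 were Cldn4 (-0.52, SE 0.25), Pard6b (-0.59, SE 0.30), Jam3 (1.25, SE 0.65) and Cldn6 (1.38, SE 1.37). For Cldn6 the spread inside each type (SD 1.79 in ICC and 2.81 in HCC lines) was larger than the difference. Limma's adjusted p for these 4 lay between 0.39 and 0.697. With labelled sex in the model limma called Jam3 higher in ICC lines (adjusted p = 0.0275), but not with the missing direction added to that model (adjusted p = 0.0677), nor without sex and with pairs of lines as a random block (adjusted p = 0.728). In the male-labelled lines alone it called Cldn6 (log2 difference 2.28, adjusted p = 0.0333). Ocln was called only with array weights, which did not converge (-1.66, adjusted p = 0.0116). In the female-labelled lines alone 3 members were called, among them Jam3 (1.39, adjusted p = 0.019) and Pard6b (-0.71, adjusted p = 0.0325). Without HCC4, 1 member was called, Jam2.

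**Figure D3:**
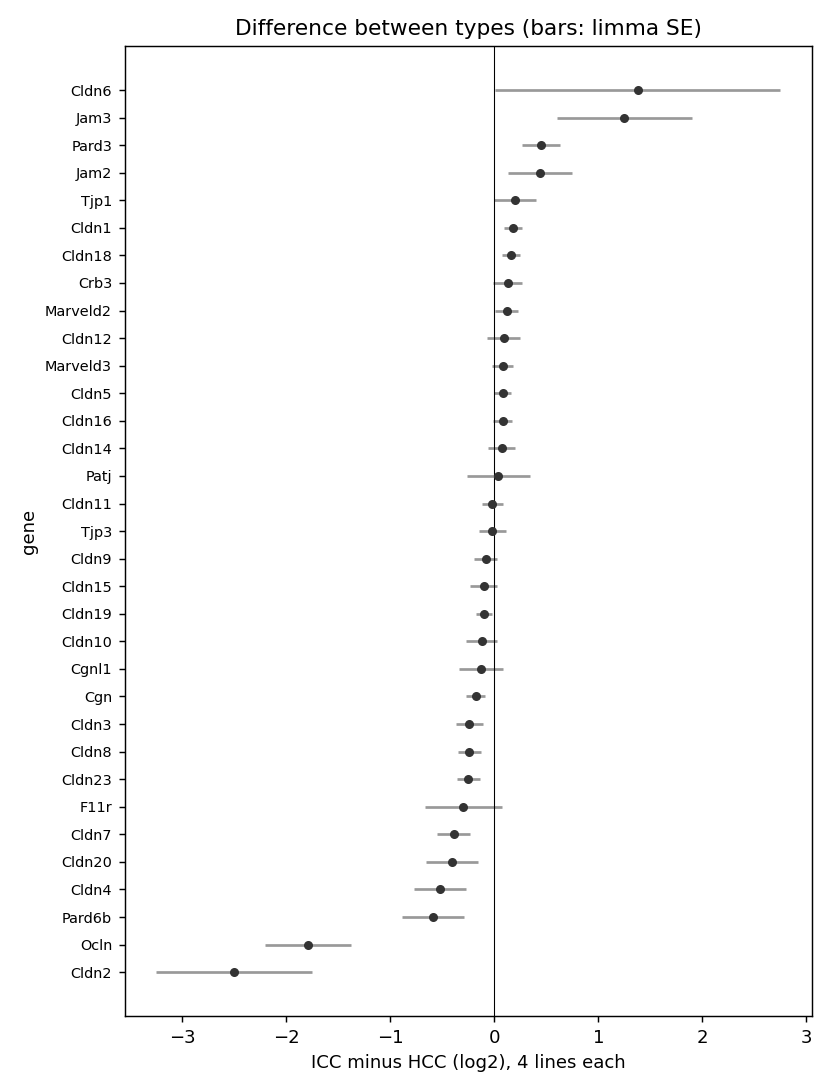
Difference between the means of the 4 ICC and 4 HCC lines in log2 units (horizontal axis) for each of the 33 genes (vertical axis), with limma's standard error as bars. Ocln (-1.79) lies farthest from 0 relative to its error, and the bar of Cldn6 (1.38) reaches close to 0.

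Inside the HCC type the lines HCC2.1 and HCC2.4, labelled female, were compared with HCC1 and HCC4, labelled male. Limma called 2 members higher, where 1.44% of all genes were higher, and 1 lower, where 1.22% were. The median difference of the members was -0.04. Cldn6 was 28.9-fold higher (log2 difference 4.86, SE 0.26, adjusted p = 0.000741) and Pard3 1.59-fold higher (0.67, SE 0.12, adjusted p = 0.0385). Jam3 was 3.97-fold lower (-1.99, SE 0.29, adjusted p = 0.022). Patj (1.10, SE 0.22, adjusted p = 0.0522) and Pard6b (0.91, SE 0.18, adjusted p = 0.0513) did not pass. Between 1 and 9 members were called when a line was left out: 9 without HCC1, 1 without HCC2.1 or HCC2.4, and 2 without HCC4 or any ICC line. Cldn6 was called each time, Jam3 not without HCC2.1 or HCC2.4, and the call of Pard3 was lost whichever line was left out. Krt19 (1.90), Apob (4.83), Hnf4a and Cdh1 were also higher in HCC2.1 and HCC2.4. The other hepatocyte markers were not called: Alb (0.00), Ttr (0.04), Apoa1 (-0.16) and Tat (-0.16). Nor were the other epithelial markers Krt8 (1.39), Krt18 (0.47), Cdh3 (0.10) and Epcam (-0.08). The part of these markers in the values of the members was not tested.

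Inside the ICC type ICC9 and ICC10, labelled female, were compared with ICC2.7 and ICC2.9, labelled male. Limma called 2 members higher (1.92% of all genes) and 1 lower (2.08%), and the median difference was 0.14 for members and 0.02 for all genes. Cldn6 was 8.31-fold higher (log2 difference 3.06, SE 0.26, adjusted p = 0.00381) and Cldn2 6.82-fold higher (2.77, SE 0.55, adjusted p = 0.0408). Jam3 was 3.27-fold lower (-1.71, SE 0.29, adjusted p = 0.0252), a call lost once the missing direction was a model term (adjusted p = 0.0534). F11r differed by 1.21 (SE 0.27, adjusted p = 0.055). The count was 7 without HCC1 or HCC4 and 1, Cldn6, without any other single line. Among markers, limma also called Krt19 (2.48), Krt18 (1.21, adjusted p = 0.0378) and Cd68 (1.88, adjusted p = 0.0313) higher in ICC9 and ICC10, and Col1a1 differed by -2.27 (adjusted p = 0.0519). Their part in these values was not tested.

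**Figure D4:**
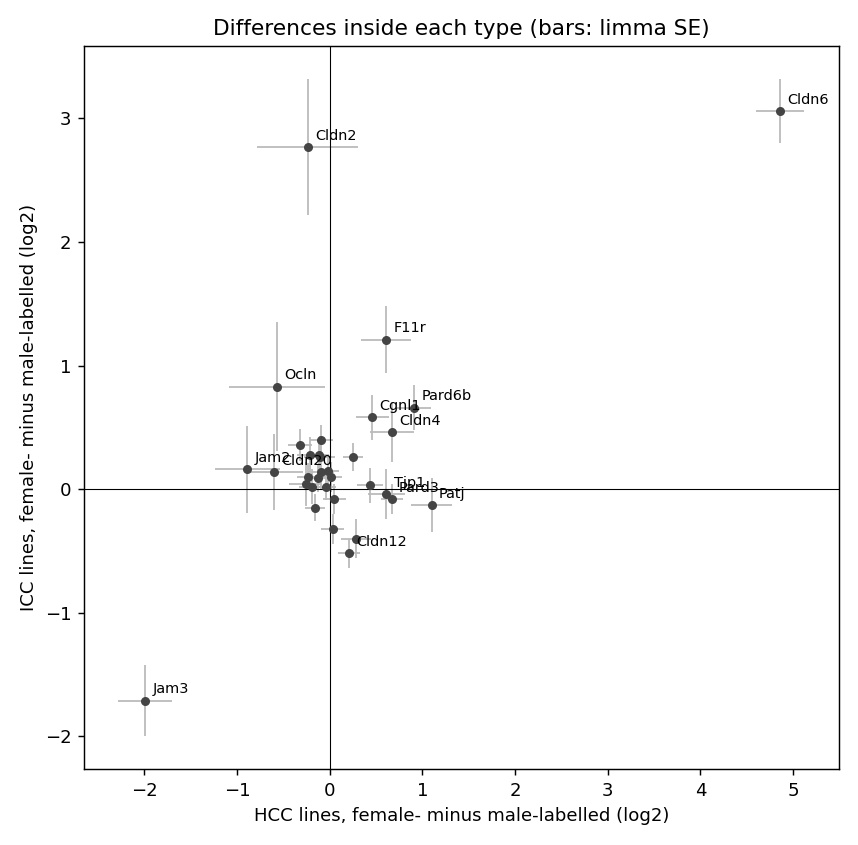
Difference between female- and male-labelled lines in log2 units inside the HCC type (horizontal axis) and inside the ICC type (vertical axis) for the 33 genes, with limma's standard errors as bars. Cldn6 is high on both axes and Jam3 low on both, while Cldn2 lies at 2.77 for the ICC type and -0.24 for the HCC type.

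The contrasts inside each type share no line, although they share the estimate of spread. Of the 33 members 10 (30.3%) had the same sign in both, against 50.1% of all genes. Whether the contrasts differ was tested directly, and limma called 0 members and 0% of all genes, with 10 members and 20.1% of all genes at an unadjusted p under 0.05. For Cldn2 the contrasts differed by 3.01 (SE 0.78, adjusted p = 0.122), so it was not shown that the types differ in this. For Cldn6 they differed by -1.80 (SE 0.36, adjusted p = 0.113), and once the missing direction was a model term this difference was called (-2.04, adjusted p = 0.0497). By its construction this test also sets ICC2.7, ICC2.9, HCC2.1 and HCC2.4 against the other 4 lines.

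Averaged over both types, a comparison added after the values inside each type were seen and so no independent support for them, 3 members were higher in female-labelled lines (2.81% of all genes) and 1 lower (2.89%). Cldn6 was 15.5-fold higher (log2 difference 3.96, SE 0.18, adjusted p = 0.000142), Pard6b 1.73-fold (0.79, SE 0.13, adjusted p = 0.0173) and F11r 1.88-fold (0.91, SE 0.19, adjusted p = 0.0375). Jam3 was 3.61-fold lower (-1.85, SE 0.20, adjusted p = 0.00397), with 4.16 to 5.65 in the lines labelled female and 5.75 to 7.51 in those labelled male. Cldn6 and Jam3 passed limma's test whichever line was left out. The call of F11r was lost when any ICC line, HCC2.1 or HCC2.4 was left out, and also once the missing direction was a model term (adjusted p = 0.0764). Pard6b was not called without ICC9, ICC10, ICC2.7, HCC2.1 or HCC2.4, and the count of members was 9 without HCC1, 5 without HCC4, 3 without ICC2.9 and 2 without any other line.

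By pair of lines, ICC2.7 and ICC2.9 were the 2 lowest of the 8 lines for 10 members: Cldn2, Cldn3, Cldn9, Cldn19, Cldn23, Ocln, Tjp3, F11r, Cgn and Pard6b, or 30.3%, against 10.4% of all genes. This counts ranks, and some gaps were small: for Cldn3 ICC2.7 read 6.30 and ICC9 6.31, and for Cldn9 ICC2.9 read 5.14 and HCC1 5.15. The same lines were the 2 highest for Cldn12, Cldn18 and Jam3 (3 members, 11.2% of all genes). The 47 other junction genes described below leaned the other way. ICC2.7 and ICC2.9 were the 2 lowest for 2 of them (4.26%) and the 2 highest for 8 (17.0%). HCC2.1 and HCC2.4 were the 2 highest for Cldn4, Cldn7, Pard6b and Patj (4 members, 9.14% of all genes), ICC9 and ICC10 for Cldn6 (1 member, 7.51%), and HCC1 and HCC4 for 0 members (6.97%). Over the members the mean absolute log2 difference was 0.239 between the lines of a pair, 0.536 between pairs of one type and 0.529 between types. Over all genes the corresponding values were 0.195, 0.296 and 0.300, and over the 47 other junction genes 0.181, 0.304 and 0.313. The median span over the lines was 0.59 log2 units for the members and 0.57 for all genes.

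Among 47 other measured tight junction and polarity genes limma called 0 between the types (0.261% of all genes), with 10 at an unadjusted p under 0.05 (14.1% of all genes) and a median difference of 0.01. Inside the HCC type 1 rose (1.44% of all genes), Llgl2, a basolateral polarity gene (log2 difference 0.86, SE 0.13, adjusted p = 0.0266). Inside the ICC type 2 fell in the female-labelled lines (2.08% of all genes): Clmp, an adhesion molecule related to Cxadr (-3.38, SE 0.29, adjusted p = 0.00381), and Igsf5, JAM4 (-0.80, SE 0.15, adjusted p = 0.0359). Clmp measured 6.74 in ICC9, 5.87 in ICC10, 9.67 in ICC2.7 and 9.69 in ICC2.9, with the HCC lines at 5.44 to 6.69. Over both types Clmp (-2.12) fell (2.89% of all genes did), and Llgl2 (0.59) and the polarity kinase Prkcz (0.40, adjusted p = 0.0487) rose (2.81%). The claudin Cldn24 ranged from 3.20 to 4.49, Mpdz, a scaffold related to Patj, from 6.20 to 7.42, and the exchange factor Arhgef2, which cingulin binds, from 9.70 to 10.91.

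Known regulators of junction genes were read in the same lines. Of 15 measured, limma called 0 between types (0.261% of all genes), where 1 had an unadjusted p under 0.05 (14.1% of all genes). It called 1 higher inside the HCC type (1.44%) and 2 higher over both types (2.81%). Inside the ICC type it called 0, with 5 at an unadjusted p under 0.05 (21.9% of all genes). Hnf4a, a hepatocyte factor that activates junction genes, measured 7.26 in HCC2.1, 7.06 in HCC2.4 and 5.32 to 5.92 elsewhere, a rise of 1.65 inside the HCC type (SE 0.21, adjusted p = 0.013). The epithelial splicing factor Esrp2 measured 6.20, 6.41, 5.01 and 5.18 in ICC9, ICC10, ICC2.7 and ICC2.9 and 6.85, 5.74, 7.15 and 7.29 in HCC1, HCC4, HCC2.1 and HCC2.4 (1.07 over both types, SE 0.22, adjusted p = 0.0375). The repressor Snai2 was highest in ICC2.7 (11.10), ICC2.9 (10.68) and HCC1 (10.38) and at 8.87 to 9.23 in the other lines, and Twist1 was highest in HCC4 (8.95, others 6.38 to 7.57). Klf5, an epithelial factor, ranged from 8.80 to 10.17. The part of these genes in the values of the members was not tested.

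Cdh1, the cadherin of epithelial cells, was brightest in HCC2.1 (8.44) and HCC2.4 (8.43), with 6.73 in HCC1, 6.51 in ICC9, 6.02 in ICC10, 5.72 in ICC2.9, 5.27 in ICC2.7 and 5.23 in HCC4. The highest values of Cdh1, Pard6b and Patj were those of HCC2.1 and HCC2.4. These values are from the brighter of 2 probe sets of Cdh1. Inside the HCC type Cdh1 rose by 2.46 (SE 0.44, limma adjusted p = 0.0384), a call made in 7 of 16 alternatives. With the mean of the 2 probe sets the rise was 1.25 and was not called (limma adjusted p = 0.0556). The call was also lost with array weights and once the missing direction was a model term (adjusted p = 0.0559). It was lost too without any one line other than HCC1 or HCC4.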

How the data were processed

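RNA (100 ng per line) from 8 lines was hybridised to Affymetrix arrays, 1 per line. The deposited log2 values, with 2 decimals, were made by RMA in oligo, per the submitters' processing notes; their versions were not given in the sources used here. Of 39993 probe sets 23521 name exactly 1 gene, and the one with the highest mean over the 8 lines stood for its gene, giving 22180 genes; 1 member had more than 1 such probe set. No dim probe set was left out. Type was tested with limma 3.58.1 (R 4.3.3; lmFit, eBayes, two-sided, Benjamini-Hochberg over all genes, adjusted p under 0.05). The contrasts by labelled sex inside each type and their difference came from a model with 4 means, on all 8 lines. The same model gave the average over both types, a comparison that was not in the design and was added after the values inside each type were seen. The fits were tested on simulated data with independent noise on each array. That noise held neither the likeness of paired lines nor the missing direction, so the simulation does not cover their effect. A called gene is one past the threshold, SE is the moderated standard error, and values after ± are SD.

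Members, lists and comparisons were chosen with earlier results of these data known. Values in every line were set to be printed for members spanning at least 1 log2 unit or with an unadjusted p under 0.05 between types, and differences for members with at least 0.5. Of other genes, called ones and up to 6 per list with the largest span were to be named, and Cdh1. Igsf5, Prkcz and the marker genes are named by those rules or lists. Alternatives were trend and robust eBayes, a level filter, further normalization, array weights, other probe set rules, the missing direction, a random block or averaging of pairs, sex terms, 1 sex only, and leaving out each line. Figures used Python 3.11.15 and matplotlib 3.10.9.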

Additional observations from a re-analysis of the deposited data

Results flagged for a closer look

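In 66 groups of 4 lines (33 members in each type), 4 had a line set apart from the other 3 by more than Dixon's 95% critical value; chance alone gives about 1 in 20 groups. F11r read 8.82 in HCC4 against 9.70 to 9.88 in the other HCC lines. Jam2 read 10.24 in HCC4 against 8.71 to 8.96, and 9.81 in ICC10 against 9.52 to 9.55 in the other ICC lines. Cldn16 read 4.64 in HCC4 against 4.72 to 4.73, a level below the median gene.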

How the results depend on the processing

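No paired analysis was possible because the replicate numbers follow accession order. The 1289 alternatives cover differences of single genes and counts. Counts stayed close in 241 and moved in 139. Differences of single genes kept direction and side of the threshold in 777, lost the call in 90 and gained one in 41. The direction turned in 1: Ocln inside the HCC type, -0.57, was 0.33 without HCC1 and down to -1.48 without the other lines. Cldn6 was called in 16 of 16 alternatives inside the HCC type, inside the ICC type and over both types. The cause of the shifts below was not tested, and array weights did not converge in every fit.

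Between types, all genes called (58) became 2278 with array weights, 696 in female-labelled and 200 in male-labelled lines only, 428 with labelled sex, 119 with sex and the missing direction, 12 with that direction alone, 6 with pairs as a random block (correlation 0.398), 0 with pairs averaged and 103 above the median level. Members (0) became 4 with array weights, 3 in female-labelled lines and 1 in male-labelled lines or with sex. Other junction genes (0) became 8, 2, 1 and 1 in the same settings, and regulators (0) became 1 with array weights and 2 in female-labelled lines.

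Inside the HCC type, genes (589) became 174 with array weights, 948 with trend and robust settings, 377 with the missing direction and 1044 above the median level. Members (3) became 5 with trend and robust settings, above the median level or with quantile normalization. Other junction genes (1) became 0 with array weights and 2 with trend and robust settings or the mean of probe sets. Regulators (1) became 0 with array weights and 2 above the median level.

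Inside the ICC type, genes (886) became 1625 with array weights, 1403 with trend and robust settings and 1515 above the median level. Members (3) became 5 in each of these. Other junction genes (2) became 5 with array weights and 4 above the median level, and regulators (0) became 2 in both. The difference of these contrasts (0 genes) gave 255 genes, 1 member and 1 other junction gene with the missing direction. Over both types, genes (1264) became 701 and regulators (2) became 1 with the missing direction, regulators 4 with array weights and other junction genes (3) 5 with the mean of probe sets. At the 99th percentile the claudins counted fell from 7 to 3 in ICC2.9 and from 8 to 5 in HCC2.4.

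Leaving out 1 line in turn, the genes called between types were 2 to 109, with 0 to 1 members. Inside the HCC type they were 29 to 1111, with 1 to 9 members, 0 to 1 other junction genes and 0 to 3 regulators. Inside the ICC type they were 82 to 1857, with 1 to 7 members, 1 to 4 other junction genes and 0 to 3 regulators. The difference of these contrasts gave 0 to 238 genes, 0 to 1 other junction genes and 0 to 1 regulators. Over both types they were 408 to 1860, with 2 to 9 members, 1 to 6 other junction genes and 0 to 5 regulators. Members without overlap were 0 to 2 higher and 1 to 6 lower. Signal over background was not measured here, and 4 arrays a type limit the precision.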
